A study of Mus musculus with 6 samples.

Results

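Genes for 7 nuclear regulators, Ppp1r10, Dido1, Zscan10, Elf3, Rreb1, Zfp532 and Zranb1, were followed through 0, 3 and 6 h of treatment with an auxin analog in mouse embryonic stem (ES) cells. They are 7 of the 55487 genes in the count table and were selected on their 3 h against 0 h values, because their mRNA already differed at 3 h, so those values are given as a description and support nothing. All libraries came from the D6AdP line, which carries DDX6-AID-mCherry on both alleles, DCP1a-EGFP on 1 allele and an OsTIR1-FLAG transgene. The degron tag (AID) sends DDX6, an RNA helicase of mRNA repression and decay, to the proteasome when OsTIR1 and an auxin are present. The 0 h group had not yet received the analog, and the 3 h and 6 h groups had been kept with 500 nM 5-Ph-IAA for those hours. Each group had 2 libraries, and all groups shared the genotype, fibroblast feeder cells, leukemia inhibiting factor, PD0325901 (a MEK inhibitor) and CHIR99021 (a GSK3 inhibitor). No group of these libraries had the same hours without the analog, or the analog without the degron, so effects of the analog itself, of time in the dish and of DDX6 loss cannot be told apart.

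The 7 genes act at different steps of gene control. PPP1R10 (PNUTS) holds protein phosphatase 1 in the nucleus in a complex with TOX4 and WDR82 that acts on RNA polymerase II at the end of genes. DIDO1 binds methylated histone H3 through a PHD finger and contacts RNA polymerase II. ZSCAN10 is a SCAN-domain zinc finger factor of ES cells, ELF3 an ETS factor best known from epithelia, and RREB1 a zinc finger factor named for RAS-responsive promoters. ZFP532 is a zinc finger protein found with ZMYND8, ZFP592 and ZFP687, and ZRANB1 (TRABID) is a deubiquitinase of the OTU class linked to Wnt signalling.

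Because DDX6 works with microRNA silencing, the 3' untranslated regions (UTRs) of the 7 genes were searched for AGCACTT, the DNA letters complementary to a seed, AAGUGCU, that is carried by miR-294, miR-291a and miR-302b, microRNAs characteristic of mouse ES cells. Among the 13524 tested genes with a 3' UTR of at least 50 bases, 17.6% held the site. It occurred in 2 of the 7, Rreb1 and Zranb1, with 1 site each. The mature microRNAs (RefSeq, GRCm38.p6) are shown with the seed, bases 2 to 8, in capitals, and both UTR sites with the seed match in capitals.
miR-294-3p: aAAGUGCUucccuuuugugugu
miR-291a-3p: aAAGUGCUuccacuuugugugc
miR-302b-3p: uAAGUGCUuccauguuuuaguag
Rreb1 site: tcttcaagagcAGCACTTtctttaccact
Zranb1 site: gtgtcctgataAGCACTTagactgatgtg
The Rreb1 site lies at chr13:37934808-37934836 and the Zranb1 site at chr7:132985228-132985256 (GRCm38, plus strand, GENCODE M21). At 3 h Rreb1 was lower and Zranb1 higher than at 0 h, and whether the sites had a part in this was not tested. Zranb1 also held 10 copies of the AU-rich pentamer ATTTA in a 3' UTR of 2440 bases, or 4.10 per kb against a median of 1.32 over the tested genes. The other 6 held 0 (Zscan10) to 3 (Zfp532). Their 3' UTRs ran from 375 bases in Zscan10 to 3003 in Rreb1, against a median of 1202.5.

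The start regions of Ppp1r10, Dido1 and Zscan10, whose mRNAs went down together, and of Elf3 and Zranb1, which were higher at 3 h, are shown as RefSeq gives them (GRCm38.p6, 300 bases around the start), on the strand of the gene. A start was taken for 6 of the 7 genes, all but Zfp532, and it was the one nearest the annotated 5' end. Capitals mark matches on either strand to the CCAAT box, the GC box (GGGCGG), the cAMP response element (TGACGTCA), an ETS-type word (CCGGAAG), the E box (CACGTG) or the TATA word (TATAAA), and overlapping or adjoining matches run together.
Ppp1r10 promoter: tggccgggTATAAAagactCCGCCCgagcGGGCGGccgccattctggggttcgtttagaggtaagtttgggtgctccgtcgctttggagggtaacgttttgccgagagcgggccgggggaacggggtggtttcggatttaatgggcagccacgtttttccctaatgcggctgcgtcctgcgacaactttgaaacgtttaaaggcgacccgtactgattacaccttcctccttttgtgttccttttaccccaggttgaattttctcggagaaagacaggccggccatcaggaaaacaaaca
Dido1 promoter: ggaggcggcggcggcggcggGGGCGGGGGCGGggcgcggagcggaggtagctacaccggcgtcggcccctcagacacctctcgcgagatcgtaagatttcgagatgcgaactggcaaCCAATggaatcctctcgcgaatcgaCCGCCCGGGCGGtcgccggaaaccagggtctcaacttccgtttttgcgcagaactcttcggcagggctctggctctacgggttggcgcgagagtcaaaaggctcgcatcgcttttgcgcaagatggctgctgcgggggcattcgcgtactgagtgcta
Zscan10 promoter: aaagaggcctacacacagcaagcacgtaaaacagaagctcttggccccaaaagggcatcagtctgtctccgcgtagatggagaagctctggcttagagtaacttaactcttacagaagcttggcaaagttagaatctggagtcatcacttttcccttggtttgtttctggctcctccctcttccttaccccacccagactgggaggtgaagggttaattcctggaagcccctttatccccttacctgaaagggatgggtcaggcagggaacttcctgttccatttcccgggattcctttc
Elf3 promoter: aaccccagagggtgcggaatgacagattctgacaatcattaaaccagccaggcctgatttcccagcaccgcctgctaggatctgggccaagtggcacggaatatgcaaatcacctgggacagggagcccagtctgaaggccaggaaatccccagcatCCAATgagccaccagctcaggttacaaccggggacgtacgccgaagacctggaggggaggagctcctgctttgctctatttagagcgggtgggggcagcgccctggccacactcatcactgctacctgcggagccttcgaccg
Zranb1 promoter: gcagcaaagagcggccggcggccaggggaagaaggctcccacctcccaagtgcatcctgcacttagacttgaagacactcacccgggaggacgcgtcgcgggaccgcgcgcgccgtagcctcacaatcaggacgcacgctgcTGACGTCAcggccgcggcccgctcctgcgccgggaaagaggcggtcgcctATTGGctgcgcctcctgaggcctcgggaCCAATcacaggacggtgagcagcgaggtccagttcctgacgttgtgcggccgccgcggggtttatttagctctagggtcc
These regions are chr17:35916946-35917245 (plus), chr2:180709950-180710249 (minus), chr17:23600576-23600875 (plus), chr1:135258423-135258722 (minus) and chr7:132930926-132931225 (plus). The Ppp1r10 start lies 762 bases inside the GENCODE M21 gene. No motif of the 6 was present in all of the 3 that went down. Dido1 had 4 GC boxes and 1 CCAAT, Ppp1r10 2 GC boxes and 1 TATAAA, and the Zscan10 window held none of these letters. Elf3 had 1 CCAAT. Zranb1 had 2 CCAAT and 1 TGACGTCA, a word found in 1.79% of the 32851 RefSeq promoters. CCAAT occurred in 37.4% of them, GGGCGG in 35.7%, TATAAA in 13.6%, CCGGAAG in 8.86% and CACGTG in 7.15%. The matches describe letters in these windows and show no binding.

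The libraries held 16357142 to 21846959 counts, and the 7 genes were each covered by 806 to 6949 counts per library. All 7 passed the filter on low counts, with 15748 genes tested. Levels are in CPM (counts scaled to library size, with TMM factors). All 15 ES cell markers were detected in every library, with sums of 7704 and 7963 CPM (0 h), 7954 and 7976 CPM (3 h) and 7116 and 7345 CPM (6 h). All 30 feeder fibroblast markers were detected too, with sums of 28660 and 31492 CPM (0 h), 27132 and 27670 CPM (3 h) and 27688 and 30906 CPM (6 h), and none was at 0. In such mixed samples fewer cells of a type and less RNA per cell cannot be told apart. The median log2 fold change of the feeder markers was -0.15 at 3 h against 0 h and 0.13 at 6 h against 3 h, and for all genes these medians were -0.00084 and 0.0052. Of the 30, none passed the test at 3 h, and 11 rose and none fell from 3 h to 6 h. Of the 15 ES cell markers, 9 fell and none rose from 3 h to 6 h (median -0.15), and 8 fell and 4 rose at 6 h against 0 h (median -0.14).

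**Figure D1:**
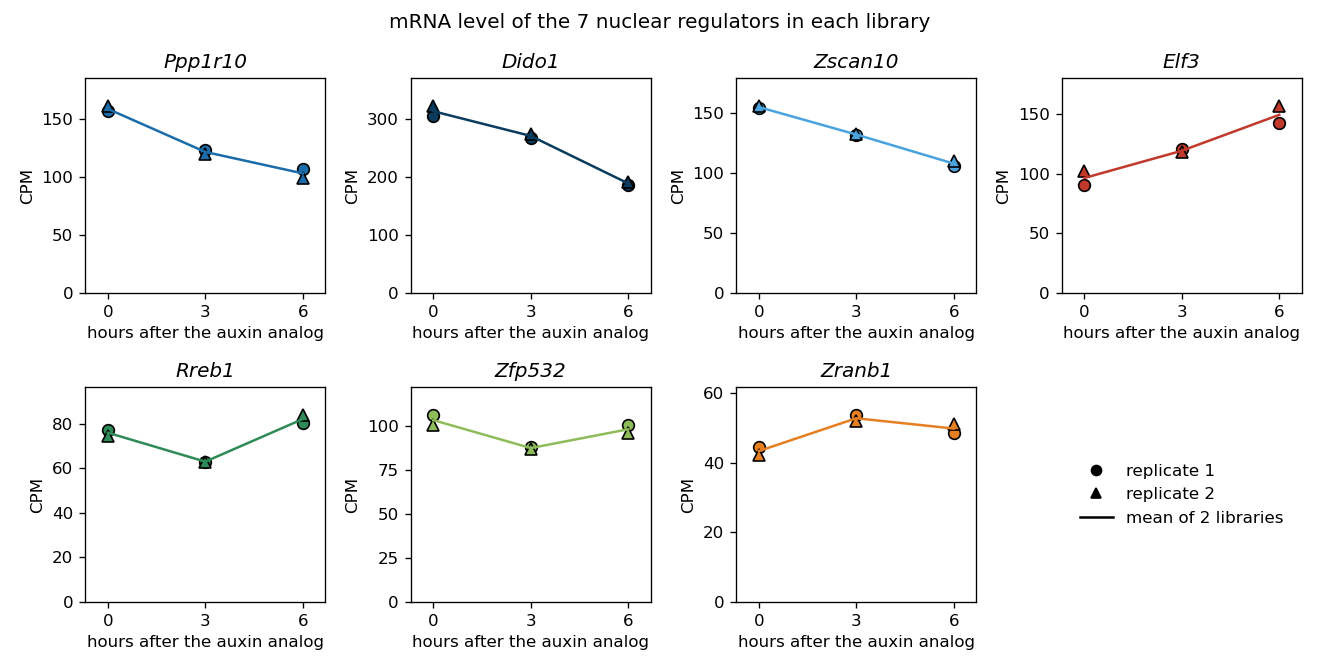
Level of each of the 7 mRNAs in CPM (y axis, from 0) against hours after the analog (x axis), with circles and triangles for the 2 libraries of each time and a line through the means. Ppp1r10, Dido1 and Zscan10 step down at 3 h and again at 6 h, Elf3 steps up at both, Rreb1 and Zfp532 dip at 3 h, and Zranb1 is raised at both later times.

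The question put to the 7 genes was whether the difference at 3 h lasted, grew or was undone by 6 h. All 7 were among the 22 genes called at 3 h against 0 h (0.14% of genes tested), with 5 lower (0.0889% of all genes were) and 2 higher (0.0508%). Their choice required this, and nothing is read from it. In none of the 7 did the CPM values of any pair of times overlap. At 3 h against 0 h 2 were higher and 5 lower without overlap, which was so for 20.5% and 21.8% of all genes (42.3% in either direction). For 6 h against 0 h 3 were higher and 4 lower (29.6% and 29.9% of all genes, 59.5% together), and for 6 h against 3 h again 3 and 4 (30.8% and 30%, 60.8% together). With 2 libraries a group such a gap is common and says little about the 7. The main test set 6 h against the mean of 0 h and 3 h. Where libraries vary equally, this contrast is uncorrelated with the one that chose the genes. Equal spread is not assured, since the replicate chi-square per degree of freedom was 4.18 at 0 h and 1.97 at 3 h. Both tests also use the same estimate of each gene's spread. The choice can therefore favour genes with a small estimate, which lowers p in the main test too. By edgeR's quasi-likelihood test, adjusted over all genes, Ppp1r10, Dido1 and Zscan10 fell, Elf3 and Rreb1 rose, and Zfp532 and Zranb1 did not pass. That is 5 of 7, while 27.3% of all genes were called (12.6% higher and 14.7% lower). A gene with a real change at 3 h departs from this mean both where the change lasts and where it is undone. The 5 of 7 are therefore not comparable with the share of all genes. Passing this test does not by itself tell a lasting change from one that grew or was undone. The contrast of 6 h against 3 h shares the 3 h libraries with the choice, which tilts it towards a return to the 0 h level, and the contrast of 6 h against 0 h shares the 0 h libraries, which tilts it towards persistence. A test against 3 h is therefore given only for the 4 genes that moved further in their first direction, against the tilt. The other values of these contrasts are descriptions with standard errors (SE) and 95% intervals. The intervals are not adjusted for the number of genes, and an adjusted p is added where it limits such a value.

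In 4 of the 7 the change grew, namely Dido1, Zscan10, Ppp1r10 and Elf3. Of all genes, 1856 (11.8%) were lower and 1558 (9.89%) were higher at 6 h than at 3 h, and with upper quartile scaling the split was 1297 lower and 2053 higher. The calls for these 4 held with upper quartile scaling and with DESeq2 size factors.

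Dido1 (ENSMUSG00000038914, chromosome 2, 180657964 to 180709999, GRCm38) made the largest fall of the 7. Its level was 305 and 322 CPM before the analog (0 h), 268 and 274 CPM after 3 h and 187 and 191 CPM after 6 h. The 6 h libraries lay well below both earlier times, and most of the drop came after 3 h. The log2 fold change was -0.21 ± 0.04 (SE) at 3 h against 0 h and -0.52 ± 0.04 at 6 h against 3 h (adjusted p = 9.75e-08). Against the mean of 0 h and 3 h it was -0.62 ± 0.03 (adjusted p = 2.07e-09), and at 6 h against 0 h it was -0.73, a change of -39.7%. Ordered by the change against that mean, Dido1 took place 371 from the lowest among the 15748 genes.

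Zscan10 (ENSMUSG00000023902, chromosome 17, 23600856 to 23611019), the ES cell zinc finger factor, declined in steps of similar size. It measured 155 and 156 CPM before the analog (0 h), 132 and 133 CPM after 3 h and 106 and 110 CPM after 6 h. Within each time the libraries nearly coincided, and the times were clearly apart. Its log2 fold change was -0.23 ± 0.04 at 3 h against 0 h, then -0.29 ± 0.04 at 6 h against 3 h (adjusted p = 6.28e-05). Measured from the mean of the earlier times, Zscan10 fell by 0.41 on the log2 scale (SE 0.03, adjusted p = 2.94e-07). The ES cell markers given above moved the same way from 3 h to 6 h, but not at 3 h against 0 h. There 1 of the 15 rose and none fell (median 0.02). The part of these markers in the fall of Zscan10 was not tested.

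Ppp1r10 (ENSMUSG00000039220, chromosome 17, 35916434 to 35932283), the phosphatase 1 subunit, had the largest difference of the 7 at 3 h and a smaller further step. Its values were 157 and 161 CPM before the analog (0 h), 123 and 120 CPM after 3 h and 107 and 99.0 CPM after 6 h. The difference at 3 h against 0 h was -23.4% (log2 fold change -0.38 ± 0.04). The step from 3 h to 6 h was -0.24 ± 0.04 (adjusted p = 0.00111), and the change against the mean of 0 h and 3 h was -0.43 ± 0.04 (adjusted p = 6.15e-07). The exons that Ppp1r10 shares with Mir1894 make up 1.44% of its exon length. Mir1894 had 0 counts, which does not show how shared reads were counted.

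Elf3 (ENSMUSG00000003051, chromosome 1, 135253575 to 135258568) was the 1 gene of the list that rose throughout. It measured 91.1 and 102 CPM before the analog (0 h), 121 and 118 CPM after 3 h and 142 and 157 CPM after 6 h. Relative to their mean, the libraries of 0 h and of 6 h were further apart than those of the other 6 genes, yet no library of one time reached those of another. Its log2 fold change was 0.31 ± 0.05 at 3 h against 0 h, 0.33 ± 0.05 at 6 h against 3 h (adjusted p = 0.000412) and 0.48 ± 0.05 against the mean of both (adjusted p = 1.09e-06). With the mean of the feeder markers added as a covariate, the 3 h value was 0.13 and the step to 6 h 0.48 (adjusted p = 1.72e-09). The same covariate gave 3 h values of -0.32 for Ppp1r10, -0.27 for Dido1, -0.27 for Zscan10 and 0.27 for Zranb1. Whether feeder RNA had a part in these early values was not tested.

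**Figure D2:**
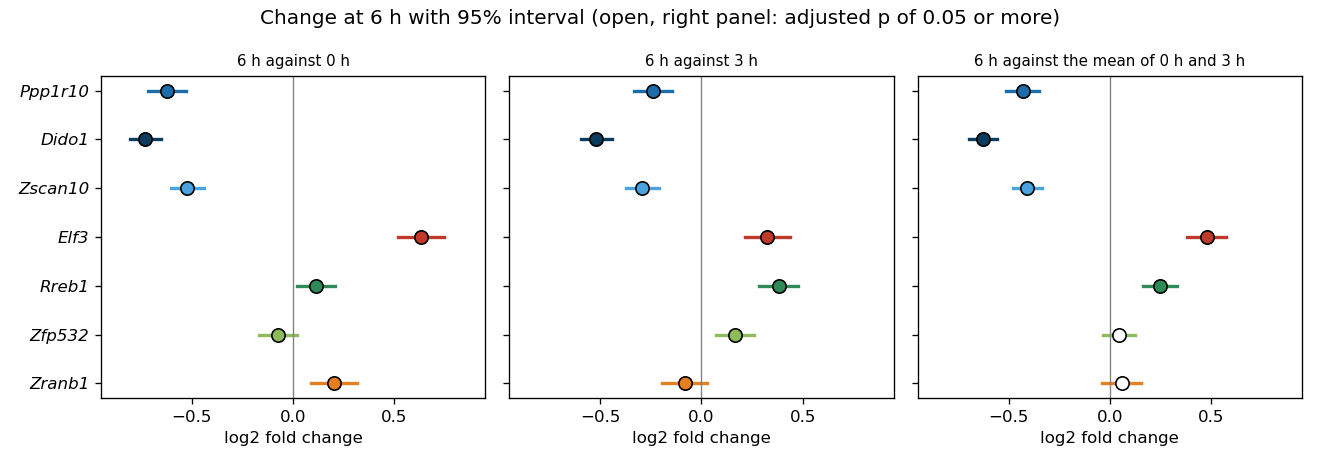
Log2 fold change of each gene (x axis) with its 95% interval for 6 h against 0 h, against 3 h and against the mean of 0 h and 3 h. In the right panel filled points passed the test and the open points of Zfp532 and Zranb1 did not; Ppp1r10, Dido1 and Zscan10 lie below 0 in all panels and Elf3 above 0.

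Rreb1 and Zfp532 had their lowest values at 3 h. Rreb1 (ENSMUSG00000039087, chromosome 13, 37778400 to 37952005) measured 77.4 and 74.5 CPM before the analog (0 h), 63.0 CPM in both libraries after 3 h and 80.4 and 83.7 CPM after 6 h. The 3 h libraries were thus the lowest, and those of 6 h lay above those of 0 h. Against 0 h the log2 fold change was -0.27 ± 0.05 at 3 h and 0.11 ± 0.05 at 6 h (95% interval 0.02 to 0.21), and from 3 h to 6 h it was 0.38 ± 0.05. After adjustment over all genes the value at 6 h against 0 h did not pass (adjusted p = 0.087). Rreb1 rose against the mean of 0 h and 3 h by 0.25 ± 0.04 (adjusted p = 0.000194), in the direction opposite to its early change. A plain return to the 0 h level would also lie above this mean, so the test does not show a level beyond that of 0 h. With the feeder covariate these values were -0.28 at 3 h and 0.25 against the mean (adjusted p = 3.32e-06).

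Zfp532 (ENSMUSG00000042439, chromosome 18, 65579912 to 65689443) showed a shallower dip. Its values were 106 and 101 CPM before the analog (0 h), 88.2 and 86.6 CPM after 3 h and 100.2 and 95.9 CPM after 6 h. The 6 h libraries lay between those of 3 h and those of 0 h. The log2 fold change was -0.24 ± 0.04 at 3 h against 0 h, 0.17 ± 0.04 from 3 h to 6 h (95% interval 0.07 to 0.26) and -0.07 ± 0.04 at 6 h against 0 h (-0.17 to 0.02). Against the mean of 0 h and 3 h it was 0.05 ± 0.04 and did not pass (adjusted p = 0.404). A full return to the 0 h level is therefore not shown. The feeder markers moved the same way at the same times. With their mean as a covariate the values for Zfp532 were -0.15 ± 0.06 at 3 h and 0.09 ± 0.06 from 3 h to 6 h. The latter did not pass (adjusted p = 0.309). The part of feeder RNA in them was not tested. By DESeq2 the step from 3 h to 6 h did not pass either (adjusted p = 0.101). Exons of 2 genes on the opposite strand cover 28.7% of the Zfp532 exons. These genes, AC132307.3 and AC132307.5, held 34 and 23 counts in all 6 libraries together. How reads that match 2 genes were counted is not given, so these counts cannot show how far the overlap affected the level of Zfp532.

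**Figure D3:**
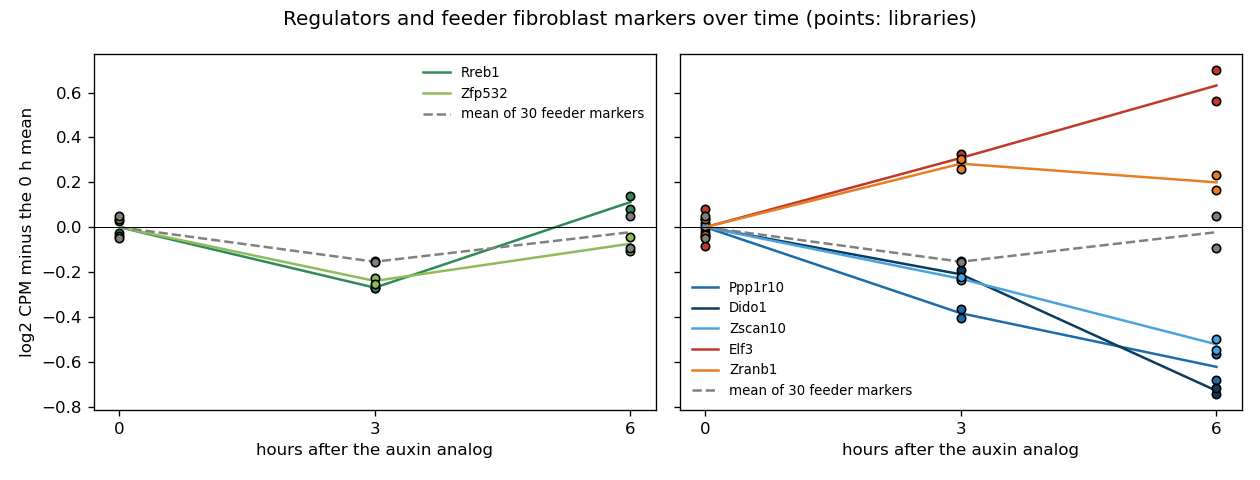
Log2 CPM minus the 0 h mean (y axis) against hours (x axis) for Rreb1 and Zfp532 (left) and the other 5 genes (right), with the mean of 30 feeder fibroblast markers dashed; points are libraries. The feeder mean and Zfp532 are both low at 3 h and closer to the 0 h level at 6 h, whereas Dido1, Zscan10, Ppp1r10 and Elf3 move on from 3 h to 6 h.

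Zranb1 (ENSMUSG00000030967, chromosome 7, 132931142 to 132986391) is the deubiquitinase gene. Of the 7 it alone had 6 h values between those of 0 h and 3 h and nearer those of 3 h. It measured 44.4 and 42.3 CPM before the analog (0 h), 53.5 and 51.9 CPM after 3 h and 48.6 and 50.9 CPM after 6 h. The later libraries were all above those of 0 h, and those of 6 h lay slightly under those of 3 h. The log2 fold change was 0.28 ± 0.05 at 3 h against 0 h and 0.20 ± 0.05 at 6 h against 0 h (95% interval 0.09 to 0.31). From 3 h to 6 h it was -0.08 ± 0.05, with an interval of -0.19 to 0.03, and against the mean of 0 h and 3 h it was 0.06 ± 0.05 (adjusted p = 0.366). A loss after 3 h within that interval and an unchanged level cannot be told apart. A 6 h level midway between those of 0 h and 3 h is not excluded either.

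Per kilobase of exon, the order of the levels changed over time. At 0 h Zscan10 was highest, at 54.3 ± 0.284 RPKM (SD, n = 2 here and in the next values), followed by Elf3 at 43.6 ± 3.50, Ppp1r10 at 28.2 ± 0.538 and Dido1 at 23.6 ± 0.889. Below them came Zfp532 at 11.5 ± 0.425, Zranb1 at 7.92 ± 0.270 and Rreb1 at 5.43 ± 0.144. Each gap between neighbours was larger than the SDs on its sides. At 6 h Elf3 led, at 67.5 ± 4.51, and Zscan10 followed at 37.8 ± 0.900. Ppp1r10 at 18.3 ± 1.04, Dido1 at 14.2 ± 0.193, Zfp532 at 10.9 ± 0.343, Zranb1 at 9.10 ± 0.302 and Rreb1 at 5.87 ± 0.167 kept their places. At 3 h Zfp532 (9.74 ± 0.127) and Zranb1 (9.64 ± 0.212) did not differ beyond their spread. Elf3 stood above 96.4% of the tested genes at 6 h and Rreb1 above 56.0%.

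Partners and relatives of the 7 were counted at 6 h against 0 h, when 22.3% of all genes were called (10% higher and 12.3% lower). The share called differed between the lists, and no list was tested against the rest. The catalytic subunits and complex partners of PPP1R10 comprise 5 genes, of which 1 fell and none rose. That gene was Wdr82, a WD-repeat protein of the same complex, which went from 197 ± 3.38 CPM at 0 h and 196 ± 2.02 at 3 h to 166 ± 3.65 at 6 h (log2 fold change -0.25 ± 0.04 against 0 h, adjusted p = 0.000141). Tox4, the DNA-binding partner, had a log2 fold change of 0.01 ± 0.04, and the phosphatase genes Ppp1ca, Ppp1cb and Ppp1cc had 0.03, -0.03 and 0.04 (adjusted p = 0.469 to 0.910 for these 4). Of 11 other regulators of phosphatase 1, 1 rose, Ppp1r9b (0.42 ± 0.05), and 4 fell, among them Ppp1r15b (-0.22 ± 0.04).

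In the list of 30 transcription elongation and termination genes 2 rose and 7 fell at 6 h against 0 h, with a median log2 fold change of -0.02 beside 0.00195 for all genes. Pcf11, a factor of cleavage and termination, fell from 153 ± 6.67 to 107 ± 2.40 CPM (-0.52 ± 0.04, adjusted p = 5.72e-07), and Hexim1, an inhibitor of the elongation kinase P-TEFb, by 0.22. Among 16 tested relatives of Dido1 with a SPOC or PHD domain 4 rose and 6 fell (median 0.01). Spen, a large SPOC-domain corepressor, fell from 331 ± 5.03 to 186 ± 4.72 CPM (-0.83 ± 0.03, adjusted p = 2.49e-10), and Ing5, a reader of methylated histone H3, by 0.40. At 3 h Spen was at 311 ± 2.66 CPM.

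Of 32 other SCAN zinc finger genes 3 rose and 3 fell (median 0.03), shares close to the 10% and 12.3% of all genes. Zscan25 (-0.42 ± 0.08) and Zfp24 (-0.22 ± 0.05) were among those that fell. Of 18 ETS factors beside Elf3, 2 rose and 7 fell (median -0.11). Elk3, an ETS factor that responds to ERK, rose by 0.21 ± 0.05, and by 0.32 ± 0.05 from 3 h to 6 h (adjusted p = 0.000567), and Etv5, an FGF-responsive ETS factor, fell by 0.19. Among 13 corepressor genes linked to Rreb1, 4 rose and 2 fell (median 0.10), with Rcor2 higher by 0.28 ± 0.04 and the corepressor gene Ctbp2 lower (-0.22 ± 0.04). Of the 3 partners of Zfp532 only Zfp687 rose at 6 h against 0 h (0.14 ± 0.05, adjusted p = 0.0473). Zmynd8, a reader of acetylated chromatin, had 0.05 ± 0.04 (adjusted p = 0.359) and Zfp592 -0.07 ± 0.05 (adjusted p = 0.354). Zmynd8 rose from 3 h to 6 h, from 122 ± 0.00528 to 134 ± 1.41 CPM (0.14 ± 0.04, adjusted p = 0.0138). Of 16 OTU deubiquitinase genes and partners of ZRANB1, 1 rose and 4 fell (median -0.10). Otub2 rose from 2.69 ± 0.00469 to 4.81 ± 0.327 CPM (0.84 ± 0.17), and Otud4 fell by 0.13.

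**Figure D4:**
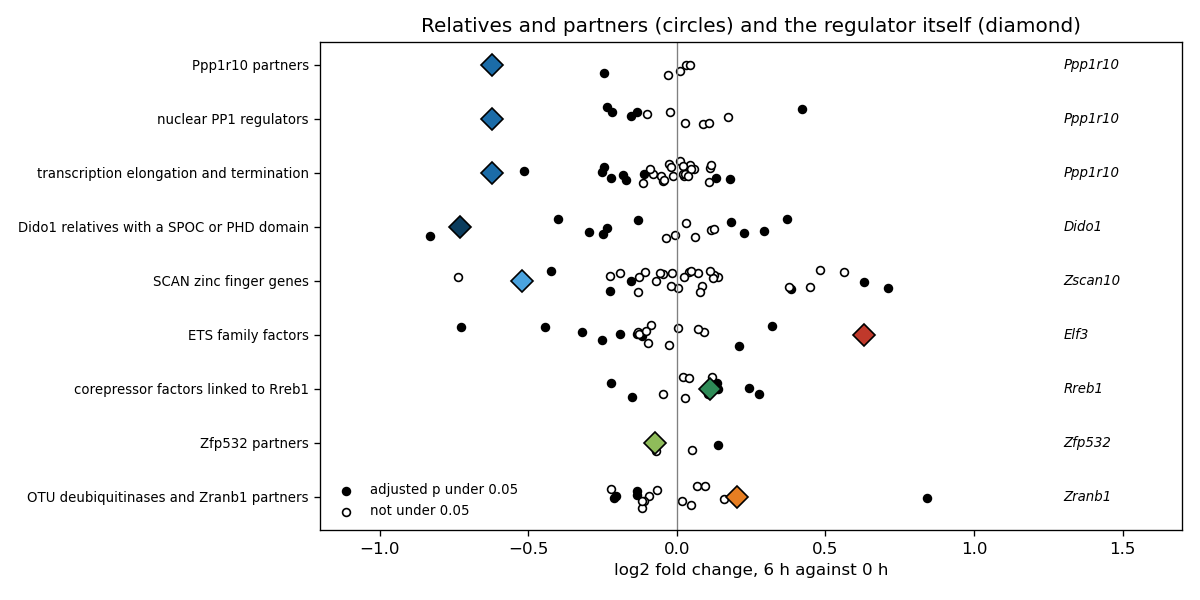
Log2 fold change at 6 h against 0 h (x axis) of the genes in each list of partners or relatives (circles, filled where adjusted p was under 0.05), with the regulator the list belongs to as a diamond. Ppp1r10 lies below all of its partners, and Elf3 above all 18 other ETS factors tested.

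The genes most like each of the 7 in time course were taken by the root mean square difference of centred log2 CPM over the 6 libraries, among 9651 genes whose average log2 CPM was 3 or more. This is a description with no test. Ppp1r10 was nearest to Trim25, a ubiquitin ligase (difference 0.0367), and Amotl2, an angiomotin (0.0455). Dido1 was nearest to Scube3, a secreted protein gene (0.0474), and Il17rd, an inhibitor of FGF signalling (0.0484). For Zscan10 these were B3gnt7 (0.0339) and Ddias (0.0386), and for Elf3 Narf (0.0565) and Mgat4a (0.0596). Rreb1 lay nearest to Pigv (0.0271) and Plekhh2 (0.0339). Zfp532 was closest to Fam43a (0.0135) and to Pdpn (0.0281), the gene of the membrane glycoprotein podoplanin. The means of Pdpn were 77.8, 69.0 and 75.4 CPM in order of time. Zranb1 was nearest to Lcor, a corepressor gene (0.0199), and Gcfc2 (0.0227). Those of Lcor were 35.6, 43.9 and 40.6 CPM.

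**Figure D5:**
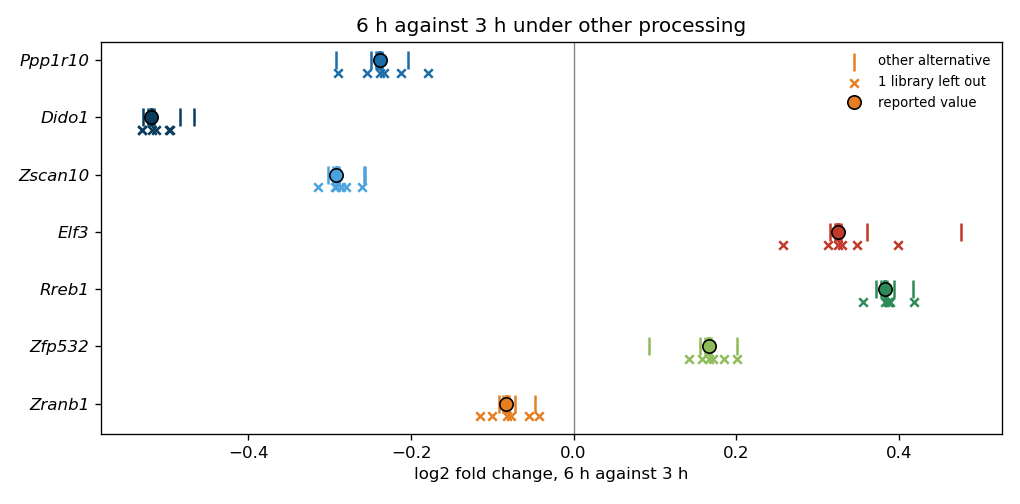
Log2 fold change from 3 h to 6 h (x axis) for each gene as reported (circle), under 10 other processing choices (bars) and with 1 of the 6 libraries left out (crosses). No gene changes sign; the widest shift is that of Elf3 to 0.48 with the feeder covariate.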

How the data were processed

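The deposited table holds counts as the authors made them: unnormalized whole numbers of reads for each Ensembl ID in each library. Trimming, alignment and counting tools were fastp 0.22.0, HISAT2 2.2.1 and featureCounts 2.0.3, on GRCm38 (mm10), per the submitters' processing notes. Annotation release, strand setting and treatment of multiple matches were not given in the sources used here, so reads of overlapping genes on opposite strands cannot be told apart. Symbols and positions came from GENCODE M21, which matched 55227 of 55487 IDs. RPKM was computed here as TMM-scaled CPM per kilobase of all annotated exons joined.

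Genes were filtered with filterByExpr (minimum count 10), which kept 15748 genes and 99.9% of counts. Libraries were scaled with TMM, and 1 edgeR 4.0.16 quasi-likelihood fit (R 4.3.3) of all 6 libraries used 3 group means, 3 residual and 13.7 prior degrees of freedom. Tests were two-sided, with Benjamini-Hochberg adjustment over all genes and a threshold of 0.05. The SE is the log2 fold change divided by the square root of F. Alternatives used DESeq2 1.42.0, limma 3.58.1 voom, other scalings and filters, covariates and fewer libraries; the legacy edgeR fit was added after seeing the data. The fit was tested on simulated counts. The 7 genes and the lists were chosen with earlier results of these data known. Named from the lists were up to 2 called genes with the smallest adjusted p in either 6 h against 3 h or 6 h against 0 h (the smaller of both), all partners of Ppp1r10 and Zfp532, and the 2 genes nearest in time course to each of the 7. Replicates were not copies of 1 library: their chi-square divided by its degrees of freedom was 4.18 at 0 h, 1.97 at 3 h and 6.46 at 6 h. The labels do not say that they were separate cultures, so p-values measure only how these libraries spread, possibly for technical reasons.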

Additional observations from a re-analysis of the deposited data

How the results depend on the processing

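With 2 libraries a time, the number of genes called over all genes depended on the processing. So did the 3 h calls of the 7 genes, though not the signs of their changes. At 3 h against 0 h, where 22 genes were called, the count was 0 with no filter on low counts (1839 at an unadjusted p under 0.05, and 13 by DESeq2), 46 with the feeder covariate, 74 with only the 4 libraries compared and 4 to 249 with 1 library left out (12 and 249 for replicates 1 and 2 of 0 h, 4 and 7 for those of 3 h, 89 and 88 for those of 6 h). No filter and DESeq2 gave 2029 and 1581 for 6 h against 0 h (3515 reported), 1725 and 1357 for 6 h against 3 h (3414 reported), and 2704 and 2050 for 6 h against the mean of 0 h and 3 h (4300 reported). The feeder covariate gave 2088 for 6 h against 3 h. Leaving out 1 library gave 1514 to 3706 for 6 h against 3 h, with 1514 when replicate 2 of 3 h was out, 1712 for replicate 1 of 3 h and 2157 for replicate 1 of 6 h, and 2783 (replicate 1 of 6 h) to 4238 against the mean. Replicate differences were nearly uncorrelated between times over all genes (0.0372, 0.0401 and -0.0212), which does not decide whether libraries of the same number were paired. With a replicate block 242 genes were called at 3 h and 4227 at 6 h against 0 h. The block gave 4186 for 6 h against 3 h and 4990 against the mean. Upper quartile scaling gave 2051 higher and 1511 lower at 6 h against 0 h (1575 and 1940 reported), and 2629 and 1709 against the mean (1992 and 2308 reported). For the 7 genes no alternative of the 16 changed a sign in any comparison, or a call against the mean of 0 h and 3 h in the 15 that could be fitted. Calls in the other comparisons did change, also in fits of all 6 libraries. At 3 h against 0 h none of the 7 was called with no filter, where the count over all genes was 0. Zfp532 at 6 h against 3 h lost its call with no filter (adjusted p = 0.0747), DESeq2 (0.101) and the feeder covariate (0.309). Zranb1 at 6 h against 0 h lost its call with no filter (0.0674) and DESeq2 (0.135). Rreb1 at 6 h against 0 h gained one with upper quartile scaling (0.032).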
